A study of Mus musculus with 4 samples.

Results

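The genes described here are 7 markers of the mesothelium, the cell layer that covers the surface of the lung: Msln, Upk3b, Upk1b, Wt1, Lrrn4, Gpm6a and Rspo1. They were chosen by name from a table of 43346 genes, each name matched 1 row, and all 7 passed the filter on low counts, as did 20872 genes in all. The samples were polyadenylated RNA labelled as lung epithelial cells, from IL-33 transgenic mice that over-express this cytokine (libraries B and E) and from control mice (libraries D and F). The series title calls the material lung tissue, and the treatment entry of the labels reads the same for all 4 libraries, controls included. The sources used here do not give the strain, the age, the promoter of the transgene or the number of mice per library, and the p-values cover only the spread between these samples, which may be technical.

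Mesothelial cells form a thin sheet over the lung and the inner chest wall and secrete the fluid and glycoproteins that let these surfaces slide. They derive from mesoderm but carry keratins and tight junctions as epithelia do. In lung preparations their RNA comes from the outer edge of the tissue, so that markers of this layer are read beside those of the airway and alveolar epithelium.

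The labelled cell type was present in every library. Alveolar type 2 cells make surfactant protein C, and its gene Sftpc stood at 20036 to 36323 CPM (gene counts scaled to a common library size). The endothelial gene Pecam1 was at 824 to 1327 CPM, Col1a1 of fibroblasts at 181 to 533 CPM, and the pan-leukocyte gene Ptprc at 8.21 to 30.0 CPM. As the genotype labels say, Il33 was higher in B (1723 CPM) and E (874 CPM) than in D (117 CPM) and F (108 CPM). The summed level of 4 Y-linked genes was 258 CPM in D, 123 in F, 23.2 in E and 1.43 in B. Each of the 4 was lower in B and E than in D and F. Sex make-up thus differed between libraries along with genotype, and their effects cannot be told apart here. The sums of E and F lay between those of B and D, and whether these libraries mixed sexes was not tested.

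The 7 mesothelial genes were highest in a control library and lowest in the other control library, with both transgenic libraries between them. Their summed level was 208 CPM in D, 151 CPM in B, 80.6 CPM in E and 67.1 CPM in F. These sums rest on 16776, 11424, 7139 and 5712 reads, or 0.0208%, 0.0150%, 0.00814% and 0.00669% of all counts. Each of the 7 genes followed the order D, B, E, F, an order that 4.94% of all genes tested showed. Fewer mesothelial cells and less of these RNAs per cell cannot be told apart in bulk libraries.

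**Figure D1:**
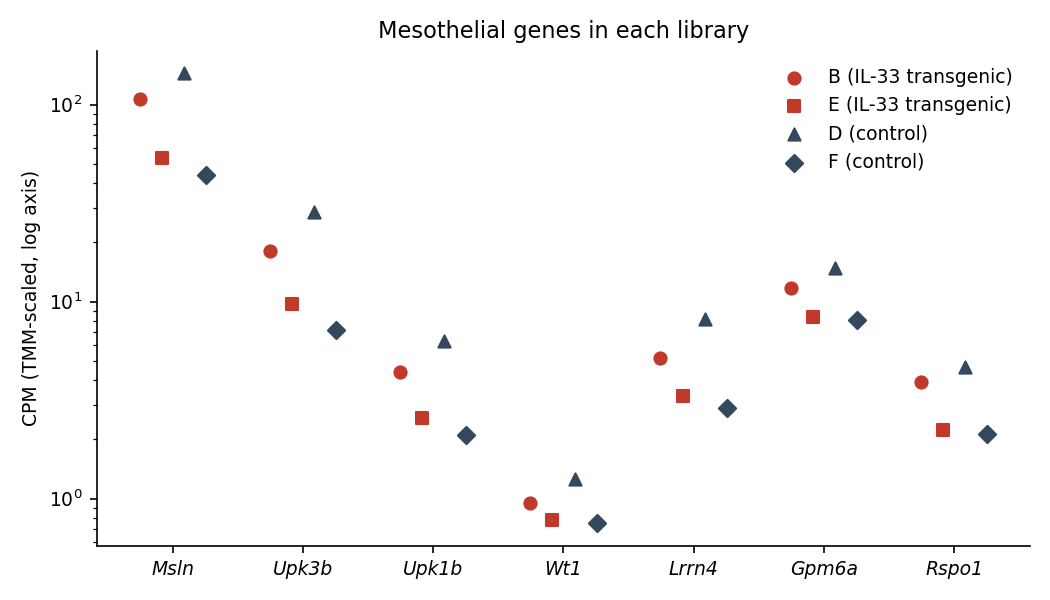
CPM (TMM-scaled, log axis) of the 7 mesothelial genes, 1 point per library, with transgenic libraries in red and controls in dark blue. For every gene control library D lies highest and control library F lowest, and the transgenic libraries B and E lie between them.

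No member was called different between the genotypes. edgeR's quasi-likelihood test called 0 of the 7 members in either direction (adjusted p under 0.05), and it called 0% of the 20872 genes tested higher and 0% lower. Without adjustment, 269 genes (1.29%) and 0 members had a p under 0.05. DESeq2 called 1 gene, which was no member, and limma-voom called 0. The log2 fold changes of transgenic over control lay below 0 for all 7 members, as for 50.4% of the genes tested, with a median of -0.23 against a median of 0.00 over all genes. The transgenic libraries were both above the controls in 0 members (11.9% of genes tested) and both below them in 0 members (12% of genes tested). They lay between the controls for 7 members (13.4% of genes tested).

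Mesothelin, encoded by Msln, is a lipid-anchored surface glycoprotein that binds the mucin MUC16, and its gene was the most abundant of the set. Msln (ENSMUSG00000063011, chromosome 17, 25748614 to 25754327, GRCm38, minus strand) stood at 144 CPM in D, 107 in B, 53.6 in E and 43.9 in F. Libraries B and D were both high, and the genotypes overlapped. The transgenic mean was 80.3 ± 37.7 CPM and the control mean 94.1 ± 71.0 CPM (SD, n = 2 each; log2 fold change -0.23, SE 0.62, edgeR adjusted p = 1). Msln alone took 65.5% (F) to 70.7% (B) of the summed CPM of the 7 genes. Muc16, which encodes the partner of mesothelin, was scarce, at 0.608 CPM in D, 0.238 in B, 0.0903 in E and 0.0939 in F (log2 fold change -1.10, SE 0.98).

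Upk3b and Upk1b encode uroplakins, membrane proteins best known from the plaques of the bladder lining. Upk3b (ENSMUSG00000042985, chromosome 5, 136038496 to 136045303, plus strand) was at 28.6 CPM in D, 18.1 in B, 9.72 in E and 7.21 in F. Its control libraries lay further apart than those of any other member, D being 3.97 times F. The transgenic mean was 13.9 ± 5.90 CPM and the control mean 17.9 ± 15.1 CPM (SD, n = 2 each; log2 fold change -0.37, SE 0.68, edgeR adjusted p = 1).

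Upk1b, a tetraspanin (ENSMUSG00000049436, chromosome 16, 38773184 to 38800203, minus strand), was at 6.32 CPM in D, 4.39 in B, 2.57 in E and 2.11 in F. The groups overlapped in the same way, with a log2 fold change of -0.28 (SE 0.57, edgeR adjusted p = 1). Of the other 4 uroplakin family genes in the table, those of the bladder plaque, Upk1a, Upk2 and Upk3a, summed to 12.1 CPM in D, 12.9 in B, 6.70 in E and 6.03 in F. Upk1a was highest in B (9.09 CPM) rather than in D (7.30 CPM), while Upk3a followed the order of the members (3.90 in D, 3.24 in B, 1.93 in E and 1.80 in F). Across the 6 genes of the family 2 log2 fold changes lay above 0 and 4 below, 0 were called, and the median was -0.09.

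Lrrn4 and Gpm6a encode membrane proteins first described in neurons, a leucine-rich repeat protein and a member of the proteolipid protein family. Lrrn4 (ENSMUSG00000043110, chromosome 2, 132868305 to 132880891, minus strand) was at 8.14 CPM in D, 5.20 in B, 3.31 in E and 2.89 in F. It had the lowest fitted value of the 7, with a log2 fold change of -0.37 (SE 0.53, edgeR adjusted p = 1), which is smaller than its standard error. Gpm6a (ENSMUSG00000031517, chromosome 8, 54954728 to 55060877, plus strand) was at 14.9 CPM in D, 11.8 in B, 8.33 in E and 8.03 in F (log2 fold change -0.19, SE 0.34, edgeR adjusted p = 1). Libraries E and F were nearly level for this gene. A further start of Gpm6a annotated by RefSeq at 54779434 lies outside the span counted in the table, so exons upstream of that span are not in these values.

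The relatives of both genes differed in profile. Lrrn1 was, like the members, higher in B (4.29 CPM) and D (3.85 CPM) than in E (2.99 CPM) and F (2.25 CPM). Gpm6b, the widely expressed paralog of Gpm6a, was at 79.1 to 91.9 CPM and Lrrn3 at 9.75 to 14.5 CPM, both highest in B. Of the 7 genes of the LRRN and GPM6/PLP families 4 log2 fold changes lay above 0 and 3 below, with a median of 0.05 and 0 called. The neuronal marker Snap25 was at 0.0794 to 0.384 CPM and was lowest in B. The sum of 5 neuronal markers ran from 3.56 to 5.09 CPM, most of it from Rbfox3 (2.31 to 4.42 CPM).

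Wt1, a zinc finger transcription factor of the mesothelium and the developing kidney and gonad, was the scarcest member. Wt1 (ENSMUSG00000016458, chromosome 2, 105126529 to 105173616, plus strand) had 101 reads in D, 72 in B, 69 in E and 64 in F, or 1.25, 0.953, 0.779 and 0.751 CPM. D was highest, but the exact 95% intervals of the counts, 82.3 to 123 in D and 56.3 to 90.7 in B, overlap. The log2 fold change was -0.21 (SE 0.36, edgeR adjusted p = 1). Its antisense neighbour Wt1os had 1 to 5 reads per library, and no gene annotated in GENCODE M21 overlaps the exons of Wt1 or of the other members. Podocytes of the kidney express Wt1 as well, and their gene Nphs1 (nephrin) was at 0.0662 to 0.124 CPM. Podxl, which podocytes share with endothelium, was highest in F (914 CPM) and lowest in B (484 CPM).

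Rspo1 encodes R-spondin 1, a secreted protein that strengthens Wnt signalling by binding LGR receptors and removing the ubiquitin ligases RNF43 and ZNRF3 from the cell surface. Rspo1 (ENSMUSG00000028871, chromosome 4, 124986430 to 125009099, plus strand) was at 4.67 CPM in D, 3.92 in B, 2.23 in E and 2.12 in F, with a log2 fold change of -0.14 (SE 0.47, edgeR adjusted p = 1). B and D were high and E and F low, whatever the genotype. The other R-spondins did not share that order: Rspo3 was lowest in B (1.31 CPM) and highest in F (2.42 CPM).

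The receptor genes differed in profile as well. Lgr6 was lowest in B (10.8 CPM) and highest in F (31.3 CPM), with 15.4 CPM in D and 25.5 CPM in E. Lgr4 stayed between 5.28 and 6.74 CPM, and the Wnt target Axin2 between 27.9 and 29.5 CPM. Of 12 R-spondin and Wnt receptor genes, 4 log2 fold changes lay above 0 and 8 below, 0 were called, and the median was -0.09.

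Compared per kilobase of coding length, the members kept the same order of level in all 4 libraries. The 4-library means were 41.2 CPM per kilobase for Msln, 6.78 for Upk3b, 3.22 for Gpm6a, 2.18 for Upk1b, 1.67 for Rspo1, 1.31 for Lrrn4 and 0.151 for Wt1. Neighbours in that order were not always resolved by the counts: Upk1b over Rspo1 was 1.09 in F (95% interval 0.881 to 1.35), and Rspo1 over Lrrn4 was 1.10 in D (0.965 to 1.25). The remaining neighbours had intervals above 1 in every library.

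The libraries of 1 genotype differed by more than the fitted difference between the genotypes for each member, and the distance was not equal for the 7 genes. Single libraries of different genotype could lie as far apart, the summed members being 2.58 times higher in D than in E and 2.26 times higher in B than in F. Between the controls, D over F was 3.97 for Upk3b (95% interval 3.63 to 4.34), 3.28 for Msln (3.16 to 3.41), 2.99 for Upk1b (2.52 to 3.56) and 2.82 for Lrrn4 (2.43 to 3.28). It was 2.20 for Rspo1 (1.83 to 2.64), 1.86 for Gpm6a (1.69 to 2.04) and 1.67 for Wt1 (1.21 to 2.32). Upk3b and Gpm6a thus had intervals that did not meet. These ratios exceeded those of 96.1% (Wt1) to 99.7% (Upk3b) of the genes tested.

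The transgenic libraries differed in the same direction by less. B over E was 1.99 for Msln (95% interval 1.92 to 2.07), 1.86 for Upk3b (1.71 to 2.03), 1.75 for Rspo1, 1.71 for Upk1b, 1.57 for Lrrn4 and 1.41 for Gpm6a. For Wt1 it was 1.22 (0.868 to 1.73), a difference that was not detectable at this depth.

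**Figure D2:**
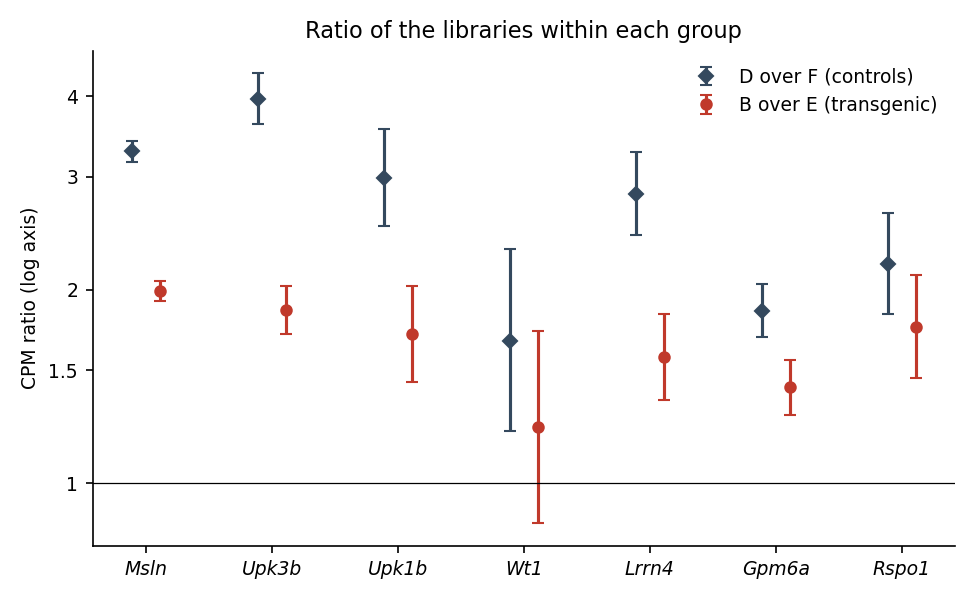
Ratio of CPM between the 2 libraries of each group (log axis) for the 7 genes, with exact 95% intervals that cover counting error only. D over F runs from 1.67 (Wt1) to 3.97 (Upk3b) and B over E from 1.22 (Wt1) to 1.99 (Msln).

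The make-up of the set differed between libraries. Against Msln, Gpm6a had 11.0 reads per 100 in B and 10.3 in D, but 15.5 in E and 18.3 in F. Wt1 had 0.891 and 0.869 reads per 100 of Msln in B and D, and 1.45 and 1.71 in E and F. Upk3b held a steadier ratio to Msln, with 19.8 reads per 100 in D, 16.9 in B, 18.1 in E and 16.4 in F.

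Genotype was also set against genotype within the libraries nearest in level, B with D and E with F. Every member had the order D, B, E, F, so the opposite directions of these ratios follow from the pairing. Transgenic B over control D was 0.726 for the summed members (95% interval 0.709 to 0.744) and lay between 0.631 (Upk3b) and 0.840 (Rspo1) for single genes. Transgenic E over control F was 1.20 for the sum (1.16 to 1.24) and lay between 1.04 (Wt1 and Gpm6a) and 1.35 (Upk3b). The interval of E over F reached below 1 for Upk1b, Wt1, Lrrn4, Gpm6a and Rspo1, so the order of E and F was resolved by counting for Msln and Upk3b only. When the fit held a term that set B and D apart from E and F, chosen from the data, the members' median log2 fold change was -0.14 and 0 were called.

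The direction of the genotype difference turned with single libraries. Without control library D all 7 log2 fold changes were above 0, with a median of 0.56 and values up to 0.95 (Upk3b). Without control library F all 7 were below 0, with a median of -0.85. Without B the median was -0.71, and without E it was 0.02. Leaving out a library gave 0 called members in each of the 4 cases. In these fits the arm with 1 library is assumed to vary like the other arm.

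**Figure D3:**
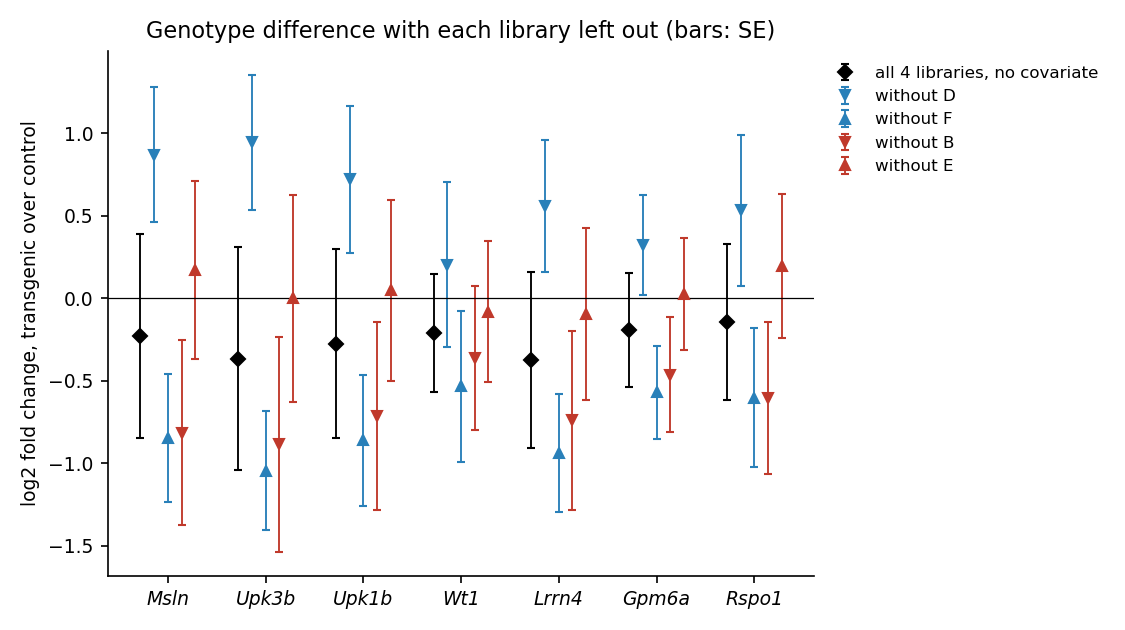
log2 fold change of transgenic over control for the 7 genes with all 4 libraries (black) and with each library left out, with bars for the SE. All values lie above 0 without control library D and below 0 without control library F.

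Other genes of the mesothelium were read from a list of 11. Of these, 10 were tested, with 3 log2 fold changes above 0 and 7 below, a median of -0.08 and 0 called. B and D both lay above E and F for 9 of the 10, as for 26.7% of the genes tested and for all 7 members. For some of the 9 the gap was slight: Cldn15 was at 2.819 CPM in B and 2.817 in F, and Calb2 had 22 reads in D and 23 in E. Krt7 and Krt19, keratins that airway and alveolar epithelium also express, were the most abundant, Krt7 at 188 CPM in D, 173 in B, 105 in E and 91.4 in F and Krt19 at 118, 133, 79.8 and 81.9 CPM. Aldh1a2, the retinoic acid synthesis enzyme, followed the members' order at 9.23 CPM in D, 7.64 in B, 4.86 in E and 4.01 in F. The epithelial zinc finger gene Bnc1 was at 1.41 CPM in D, 1.09 in B, 0.598 in E and 0.657 in F. The full order D, B, E, F held for 3 of the 10, against 4.94% of the genes tested. Nkain4 did not have B and D above E and F, being lowest in B (3.89 CPM) and at 6.10 to 6.95 CPM in the other libraries. Calb2, the calretinin gene, had 0.0235 CPM in F and 0.260 to 0.344 CPM in the other libraries.

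Markers of other cells moved between the same libraries, and their part in the members' differences was not tested. The 8 alveolar type 2 genes summed to 47690 CPM in D, 57853 in B, 37864 in E and 34480 in F, and B and D lay above E and F for all 8. Of the 8 alveolar type 1 genes, 6 had B and D above E and F and 4 followed the order D, B, E, F, with Ager at 1192 CPM in D, 1185 in B, 685 in E and 606 in F. The 8 fibroblast genes ran the other way, with sums of 1734 CPM in D, 1034 in B, 2430 in E and 2785 in F. So did the 8 endothelial genes (5636 CPM in D, 4321 in B, 6798 in E and 7417 in F) and the 6 smooth muscle genes (774, 655, 1077 and 1306 CPM).

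D over F was 3.10 for the members' sum, which is mostly Msln, 1.38 for the alveolar type 2 sum and 1.24 for the alveolar type 1 sum. The type 1 sum is mostly Ager, Cav1 and Emp2, and Cav1 and Emp2, which endothelium also expresses, had ratios of 0.994 and 0.914. The type 1 genes Ager (1.97), Pdpn (2.09), Akap5 (2.15), Aqp5 (2.17) and Rtkn2 (2.25) had ratios above those of Wt1 and Gpm6a and close to that of Rspo1. The 5 erythroid genes had a sum with a like ratio (2.94), at 52.6 CPM in D, 25.7 in B and 17.9 or less in E and F. The Y-linked sum was highest in D and second in F, whereas the mesothelial sum was highest in D and lowest in F. With the Y-linked share added to the fit all 7 log2 fold changes were above 0 (median 1.62) and 0 were called. In that edgeR fit 1 member had an unadjusted p under 0.05, as had 80 of the 20872 genes tested. The Y-linked share was itself aligned with genotype, so with 4 libraries this fit cannot separate them. Its values are not a genotype effect adjusted for sex.

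**Figure D4:**
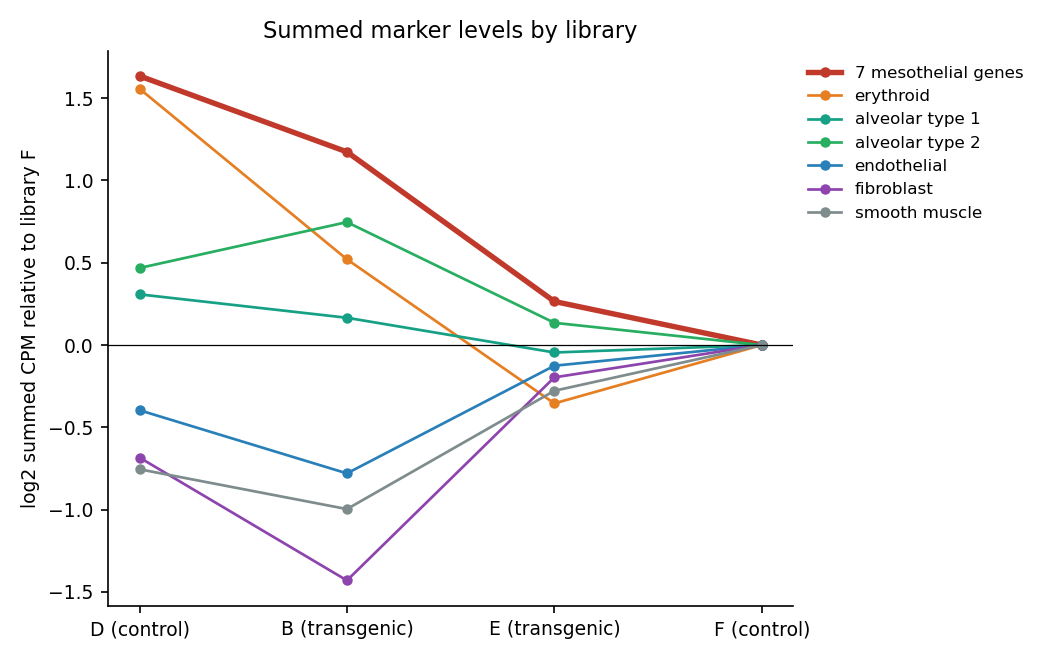
Summed CPM of the 7 mesothelial genes and of marker lists of 6 other cell types, as log2 relative to control library F, with lines joining the values of 1 list. The mesothelial line falls from D (208 CPM) to F (67.1 CPM), while the endothelial, fibroblast and smooth muscle lines are higher in E and F than in B and D.

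The genes whose profile over the 4 libraries was most like the members' mean profile were Arhgap22, Spock2, Scnn1g, Wnt10b and F3, out of 13581 candidates. On the log2 CPM scale the members' mean deviated from its own 4-library mean by 0.74 in D, 0.28 in B, -0.42 in E and -0.61 in F. Arhgap22 lay at a root mean square distance of 0.03, with 12.3 CPM in D, 8.95 in B, 5.25 in E and 4.75 in F. Spock2, a matrix proteoglycan gene, lay at a distance of 0.07, with 193 CPM in D, 138 in B, 95.9 in E and 76.7 in F. The distances of Scnn1g (a subunit of the epithelial sodium channel), Wnt10b and F3 (tissue factor) were 0.09, 0.10 and 0.10. Among the members the distances ran from 0.07 (Lrrn4) to 0.27 (Wt1). The 5 outside genes were picked as the nearest of 13581 candidates, so their small distances follow from that choice.

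The sequences before the members' annotated starts were also read, and whether they bear on the differences between libraries was not tested. RefSeq (GRCm38.p6) gave windows for 4 of the 7, Upk3b, Lrrn4, Gpm6a and Rspo1; Msln, Upk1b and Wt1 were without an entry. The 250 bases before the start are shown for Upk3b and Lrrn4, which had high D over F ratios, and for Gpm6a at the start counted in the table, which had a low one. Capitals mark matches on either strand to GGAATG, the core bound by TEAD factors, and to GNGNGGGNG, a pattern of the GC-rich sites of EGR and WT1 proteins, where matches may overlap.
Upk3b, chr5:136038246-136038495, plus strand: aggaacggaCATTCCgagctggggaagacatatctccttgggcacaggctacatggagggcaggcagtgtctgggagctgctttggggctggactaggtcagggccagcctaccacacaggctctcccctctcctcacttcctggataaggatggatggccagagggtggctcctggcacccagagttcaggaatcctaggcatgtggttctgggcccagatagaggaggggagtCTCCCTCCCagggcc
Lrrn4, chr2:132880863-132881112, minus strand: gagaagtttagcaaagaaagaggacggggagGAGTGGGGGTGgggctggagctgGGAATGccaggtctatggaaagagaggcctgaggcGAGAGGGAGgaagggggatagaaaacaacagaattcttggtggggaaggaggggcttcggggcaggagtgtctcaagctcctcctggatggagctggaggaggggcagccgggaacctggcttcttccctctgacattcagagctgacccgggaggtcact
Gpm6a, chr8:54954478-54954727, plus strand: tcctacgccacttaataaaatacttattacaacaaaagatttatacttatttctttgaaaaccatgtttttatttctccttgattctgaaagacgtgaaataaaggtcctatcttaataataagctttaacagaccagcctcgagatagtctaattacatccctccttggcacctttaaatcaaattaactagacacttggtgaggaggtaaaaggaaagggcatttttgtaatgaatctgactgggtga

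Upk3b held 1 match to GGAATG (as CATTCC, from -241 to -236 relative to the start) and 1 to GNGNGGGNG (as CTCCCTCCC, from -15 to -7). Lrrn4 held 1 match to GGAATG (from -196 to -191) and 3 to GNGNGGGNG, of which 2 overlap (GAGTGGGGG and GTGGGGGTG). The Gpm6a window shown held 0 of both, while the window before its upstream start held 1 match to GGAATG and 0 to GNGNGGGNG. Rspo1, not shown, held 0 matches to GGAATG and 2 overlapping ones to GNGNGGGNG. Of 32851 windows of the same length over all genes, 12.6% held GGAATG and 35.8% GNGNGGGNG, so these matches are common. A match is a description of the letters and does not show binding. The windows differed in base composition, with 60.8% G and C in Upk3b, 59.2% in Lrrn4, 66.8% in Rspo1 and 33.6% in the Gpm6a window shown.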

How the data were processed

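Polyadenylated RNA labelled as mouse lung epithelial cells was sequenced from 2 IL-33 transgenic and 2 control libraries. The authors deposited raw read counts per gene, not normalized, with an RPKM value beside each. Reads had been handled with TopHat2 (version 2), Bowtie (version 1) and featureCounts (version 1) on mm10 (GRCm38), per the submitters' processing notes; the sources used here do not give the strand setting, the annotation release or how multiply matching reads were counted. The deposited RPKM values were not used. Groups came from the genotype labels.

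The filterByExpr filter (a minimum count of 10 and a total of 15) left 20872 of 43346 genes, which were scaled by TMM. Transgenic and control libraries were compared with the quasi-likelihood test of edgeR (version 4.0.16 in R 4.3.3) without a covariate. Benjamini-Hochberg adjustment covered all genes tested, with a threshold of 0.05. The script was tested on simulated data with a fixed spread shared by all genes. It was not tested at the spread seen between these libraries. Each standard error (SE) was taken as the size of the log2 fold change over the root of its F statistic. CPM values use TMM-scaled totals. Values per kilobase divide them by the table's coding length. Intervals are exact (95%) and cover counting error only. Total counts ran from 76120696 to 87723745. All pairs of libraries differed by more than sampling noise (chi-square per gene 18.1 or more).

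Alternatives were other scalings and filters, DESeq2 1.42.0, limma-voom (limma 3.58.1), edgeR with legacy=FALSE, a term that set B and D apart from E and F, a covariate for the Y-linked share, and each library left out. The members, gene lists and alternatives were chosen with earlier results of these data known. Motifs and the order of libraries were chosen after values or sequences were seen. All 7 members are named. Genes most alike are the 5 genes outside the lists with a mean of at least 1 CPM, predicted genes left out, whose centred log2 CPM (prior count 2) lay nearest the members' mean profile by root mean square distance.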

Additional observations from a re-analysis of the deposited data

How the results depend on the processing

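No member was called under any of the 14 alternatives. Under the 10 that kept all 4 libraries, each member stayed below 0 except with a covariate for the Y-linked share, which gave log2 fold changes of 2.06 for Msln, 2.37 for Upk3b, 1.83 for Upk1b, 0.72 for Wt1, 1.62 for Lrrn4, 0.93 for Gpm6a and 1.28 for Rspo1. That covariate was aligned with genotype, so these values are not a genotype effect adjusted for sex. The cause of the reversal was not tested. Wt1 was not fitted with a minimum of 1 CPM in 2 libraries, which it did not reach. With 1 library left out, the values ran from -0.85 to 0.87 for Msln, -1.04 to 0.95 for Upk3b, -0.86 to 0.72 for Upk1b, -0.53 to 0.20 for Wt1, -0.94 to 0.56 for Lrrn4, -0.57 to 0.32 for Gpm6a and -0.60 to 0.53 for Rspo1. Over all genes the count called higher was 1 with DESeq2 and 0 to 5 with 1 library left out, and the count called lower was 0 to 12. No paired analysis was possible because the labels give no replicate numbers that groups share. Depth limits Wt1, Wt1os, Muc16 and Calb2 most, and 2 libraries per group limit every comparison.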
